A study of Mus musculus with 2 samples.

Results

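The genes described here are 10 members of transforming growth factor beta (Tgf-beta) signalling and its readouts: the ligand Tgfb1, the receptors Tgfbr1, Tgfbr2 and Tgfbr3, the signal transducers Smad2, Smad3, Smad4 and Smad7, and the Id genes Id1 and Id2. They were found as the probe sets whose platform annotation names one of these genes and no other, which gave 24 of the 34945 probe sets that name a single gene, or 10 of 18193 named genes. All 24 matched by current symbol, and 0 further probe sets named a member together with another gene. The study hybridised total RNA from mouse hematopoietic stem cells (HSC), the marrow cells from which blood is renewed, to a pair of Affymetrix arrays to ask how loss of Sirt6, a nuclear NAD-dependent deacylase, changes transcript levels. The groups were Sirt6 knockout HSC (1 array) and wild-type HSC (1 array), each at an age of 3 months. The sources used here do not say how or in which cells Sirt6 was disrupted, whether RNA of several animals was pooled, or which gate defined the cells.

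Tgf-beta binds the type II receptor Tgfbr2, which recruits and activates the type I receptor kinase Tgfbr1, while Tgfbr3 (betaglycan) is a coreceptor that presents ligand. The activated type I receptor phosphorylates Smad2 and Smad3, which join the common partner Smad4 and enter the nucleus to regulate transcription. Smad7, itself a target of the pathway, inhibits the receptors. Id proteins are helix-loop-helix proteins without a DNA-binding region that hold E proteins off DNA, and their genes are regulated by Smads of the BMP and Tgf-beta branches. In bone marrow, Tgf-beta is known as a signal that holds HSC in quiescence.

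Values are deposited MAS5 signal intensities, given in arbitrary units, 1 per probe set and array. A probe set was called measured when its signal exceeded a floor of 60.5 (5.92 on the log2 scale), the median over all probe sets, on at least 1 array, and a signal under the floor was raised to it, so that a ratio against it is a lower bound. Log2 ratios are the array labelled knockout minus wild type. With 1 array per genotype no test, SD over samples or p-value could be computed, and every difference compares these 2 RNA samples. The number of arrays limits the precision. As a partial measure of technical error, the log2 ratios of probe sets of the same gene differed with a pooled SD of 0.22 over the 4632 genes for which both arrays held 2 or more probe sets past the floor. This value, called the technical SD below, is pooled over all brightnesses. It leaves out error in sorting, RNA preparation and hybridization, which the probe sets of a gene share. The arrays had median signals of 60.7 (labelled knockout) and 60.8 (wild type). Sirt6 itself read 174 under the knockout label and 124 in wild type (log2 ratio 0.49), so its only probe set was not lower there. Since the position of that probe set relative to any deletion is unknown here, it does not check the genotype, and all directions below rest on the label.

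The HSC label was set against 8 markers of stem cells, all measured, with Kit, a receptor shared by stem and progenitor cells, at 1746 and 1709 (labelled knockout, then wild type). Of the 8, 5 were lower under the knockout label by 1.5-fold or more and 0 were higher, the lower ones being Fgd5 (log2 ratio -1.38), Hlf (-1.13), Procr (-0.87), Tek (-0.63) and Mecom (-0.63). Slamf1 (-0.10), Hoxb5 (-0.05) and Kit (0.03) lay within 1.5-fold. Cd48, Flt3 and Cd34, which multipotent progenitors express, were measured too, with ratios of 0.49, 0.19 and 0.15. They and the 8 formed 1 marker list, described here in parts. Over its 11 genes on the array, 5 were lower and 0 higher by 1.5-fold or more, with a median log2 ratio of -0.10. Genes of a granulocyte marker list were also measured on both arrays. Their signals summed over 12 genes to 37246 (labelled knockout) and 23234 (wild type), with 10 of 12 higher by 1.5-fold or more and 0 under the floor. The largest signals were those of primary granule genes, Mpo (7914 against 5051), Ctsg (7235 against 4141) and Prtn3 (6875 against 5312). Myeloid progenitors also express these, so the sum does not tell granulocytes from progenitors.

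Tgfb1 was the 1 member gene counted as at least 1.5-fold different, and 1 of its probe sets went the other way. Id1 was under the floor in wild type and above it on the array labelled knockout, so it has a lower bound (1.49-fold), which does not exclude a difference of 1.5-fold or more. The brightest probe sets of the receptors, Smad2, Smad3, Smad4 and Id2 had ratios within the technical SD, and that of Smad7 lay beyond it at 0.35. Of the 24 member probe sets, 16 passed the floor on each array, 2 passed it under the knockout label alone, and 6 passed it on neither. Each of the 10 genes had at least 1 measured probe set. Among the 18 measured probe sets, 1 was at least 1.5-fold higher on the array labelled knockout, against 1.6% of all 19881 measured probe sets naming a gene, and 0 were at least 1.5-fold lower, against 3.55%. The other 17 lay between. At a size of 2-fold, 0 of the 18 were higher and 0 lower, against 0.302% and 0.785% of all measured probe sets, and 0 of 10 member genes were called in either direction, against 0.398% and 0.572% of all measured genes.

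**Figure D1:**
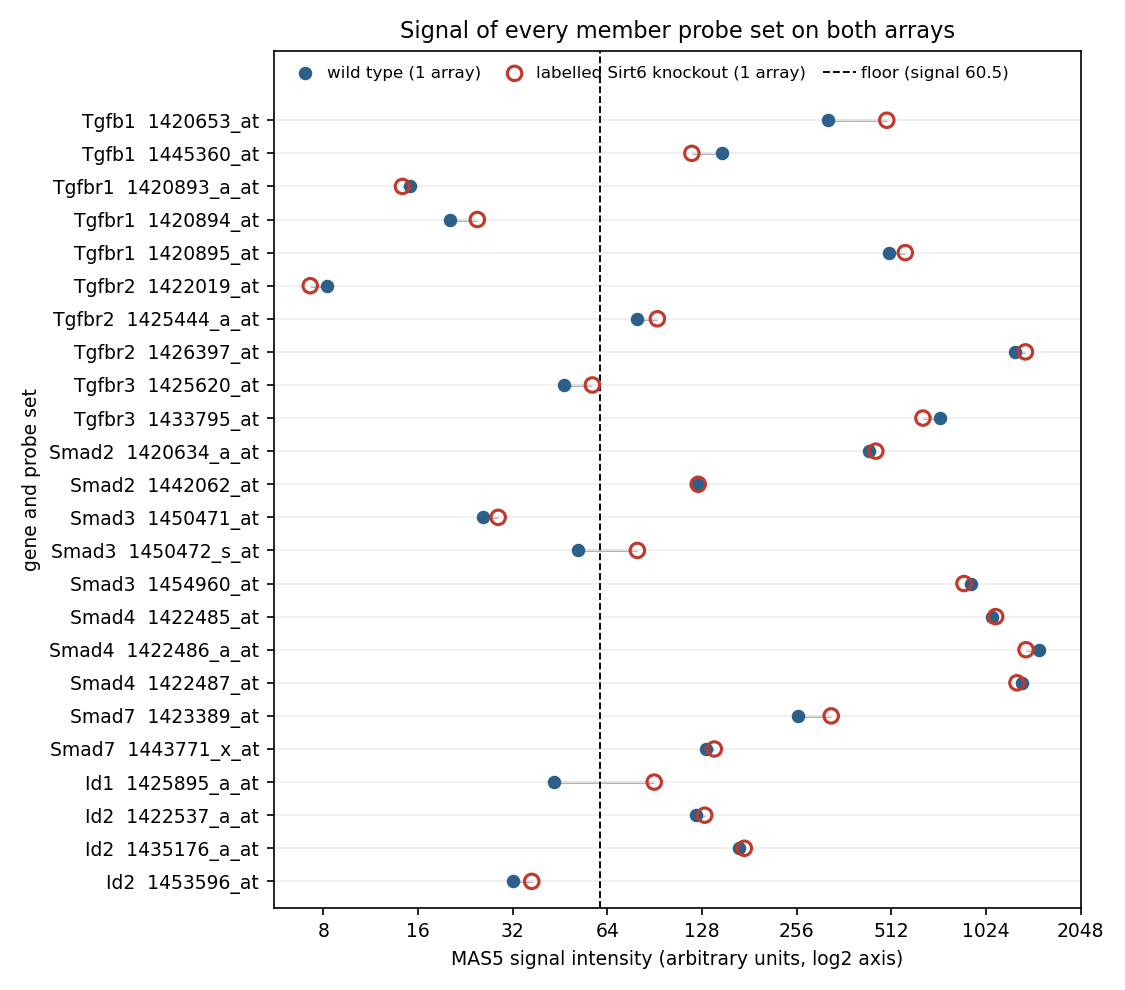
Signal of each of the 24 member probe sets (MAS5 intensity in arbitrary units, log2 axis) on the wild-type array (filled circles) and the array labelled Sirt6 knockout (open circles), with lines joining the arrays and the floor of 60.5 dashed. The widest gaps are those of Id1 (90.2 against 43.3), Smad3 1450472_s_at (79.8 against 51.5) and Tgfb1 1420653_at (495 against 321), while both Smad2 probe sets nearly coincide.

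With each gene represented by its brightest probe set (highest mean log2 signal of both arrays), 1 of 10 member genes (Tgfb1) was at least 1.5-fold higher, against 1.71% of 11547 measured genes, and 0 were lower by that size, against 2.63%. Of the member genes, 7 had a positive and 3 a negative ratio. Their median log2 ratio was 0.09, beside 0.0023 over all measured genes. The median size of the ratio, whatever its sign, was 0.16 for the members and 0.13 for all measured genes. A ratio no larger than the pooled SD of 0.22 was found for 7 of 10 members and for 71.7% of all measured genes. The 3 members beyond it were Tgfb1, Id1 and Smad7.

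Tgfb1, the ligand, is printed here with Id2, a gene downstream of Smads, because Tgfb1 had the largest ratio among members above the floor on both arrays and Id2 is the Id gene with a RefSeq promoter entry (GRCm38.p6). Promoter entries were used for 5 members. Each window runs from 250 bases before to 50 bases after the annotated start, 5′ to 3′ on the gene's strand. Capitals mark the short Smad-binding box (GTCT, or AGAC on the opposite strand) and the GC-rich box of BMP Smads (GGCGCC, which reads the same on both strands). Tgfb1 lies at chr7:25686752-25687051 on the + strand and Id2 at chr12:25096043-25096342 on the - strand.
Tgfb1: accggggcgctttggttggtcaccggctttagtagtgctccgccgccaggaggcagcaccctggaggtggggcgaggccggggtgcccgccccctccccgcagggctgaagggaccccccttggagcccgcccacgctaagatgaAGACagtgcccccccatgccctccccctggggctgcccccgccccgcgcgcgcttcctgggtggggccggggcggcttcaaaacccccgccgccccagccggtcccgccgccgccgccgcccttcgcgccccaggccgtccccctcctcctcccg
Id2: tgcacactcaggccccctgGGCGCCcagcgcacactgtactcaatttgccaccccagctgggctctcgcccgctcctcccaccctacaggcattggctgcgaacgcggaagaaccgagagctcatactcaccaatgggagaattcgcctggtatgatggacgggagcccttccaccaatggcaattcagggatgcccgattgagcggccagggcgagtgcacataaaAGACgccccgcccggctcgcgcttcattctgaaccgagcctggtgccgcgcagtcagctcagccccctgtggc

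The Tgfb1 window held 1 Smad box and 0 GC-rich boxes, and the Id2 window held 1 of each. A Smad box was found in 88.0% and a GC-rich box in 11.9% of 32851 promoter windows of this length, so the short box is present in most promoters. The palindrome GTCTAGAC was in 0.213% of all windows and in 0 of the 6 member windows. Smad2, Smad4, Smad7, Id1 and Tgfbr3 were not searched. The E box (CANNTG, both strands), the site bound by the E proteins that Id proteins restrain, was in 72.3% of all windows, with 1 match in the Id2 window and 0 in that of Tgfb1. Among the other member windows, that of Smad3 held 1 Smad box, that of Tgfbr2 held 1 Smad box and 1 E box, and of the 2 Tgfbr1 windows 1 held a GC-rich box and the other 2 Smad boxes and 1 E box. These matches are letters in a window and were not tested for binding.

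The ligand gene Tgfb1 read 495 under the knockout label and 321 in wild type at probe set 1420653_at, a 1.54-fold higher signal (log2 ratio 0.62). Its other probe set, 1445360_at, read 119 against 148 and so was 1.25-fold lower (log2 ratio -0.32). Both lay above the floor on both arrays, and the 0.94 between their log2 ratios was the widest disagreement within any member gene. Among all probe sets with a mean log2 signal from 8 to 9, the central 95% of log2 ratios ran from -0.68 to 0.47, and 1420653_at lay outside it. For 1445360_at the range at log2 signal 7 to 8 was -0.83 to 0.52, which contains its ratio. The array therefore gave no single direction for Tgfb1. In RNA of bulk cells, fewer cells of a type and less RNA per cell cannot be told apart. Tgfb1 is transcribed in many blood cell types, and the part of the higher granulocyte markers in its ratio was not tested.

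The signalling receptors differed little. Tgfbr2, the ligand-binding type II receptor, read 1366 against 1264 at 1426397_at (labelled knockout against wild type, log2 ratio 0.11) and 92.3 against 79.3 at 1425444_a_at (0.22). Its remaining probe set, 1422019_at, was under the floor on both arrays at 7.27 and 8.21. Tgfbr1, the type I receptor kinase, read 567 against 502 at 1420895_at, a 1.13-fold higher signal (log2 ratio 0.18). The other Tgfbr1 probe sets, 1420893_a_at (14.3 and 15.1) and 1420894_at (24.7 and 20.3), lay under the floor on both arrays. The measured probe sets of both kinase receptors thus all had small positive ratios, none larger than the technical SD of 0.22.

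Tgfbr3, the coreceptor betaglycan, read 645 on the array labelled knockout and 731 in wild type at 1433795_at, 1.13-fold lower (log2 ratio -0.18). This was the lowest ratio among the 10 member genes, and it too was smaller than the technical SD. The second Tgfbr3 probe set, 1425620_at, read 57.4 and 46.6, under the floor on both arrays.

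Of the receptor-regulated Smads, Smad2 read 457 against 433 at 1420634_a_at (log2 ratio 0.08) and 124.5 against 123.5 at 1442062_at (0.01). Both Smad2 probe sets thus gave nearly equal signals on the arrays. Smad3, the other transducer of Tgf-beta itself, read 871 against 918 at its brightest probe set 1454960_at (log2 ratio -0.07). At 1450472_s_at it read 79.8 on the array labelled knockout and 51.5 in wild type, where it was under the floor, so the signal was at least 1.32-fold higher. The suffix _s_at marks a probe set that can match transcripts of more than one gene. The remaining probe set, 1450471_at, was under the floor on both arrays at 28.8 and 25.7. The brightest Smad3 probe set and the dimmer one therefore pointed in opposite directions.

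Smad4, the partner shared by the Tgf-beta and BMP branches, had 3 probe sets, all far above the floor. They read 1099 against 1070 at 1422485_at, 1372 against 1508 at 1422486_a_at and 1284 against 1331 at 1422487_at (labelled knockout against wild type). The log2 ratios were 0.04, -0.14 and -0.05. Smad4 was the member with the most measured probe sets, and their ratios spanned 0.17 around 0.

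Smad7, the inhibitory Smad that is commonly induced by the pathway it restrains, read 330 on the array labelled knockout and 259 in wild type at 1423389_at, 1.27-fold higher (log2 ratio 0.35). The second probe set, 1443771_x_at, read 140 against 131 (0.09). Its suffix _x_at marks probes that can match other transcripts. Both Smad7 probe sets had positive ratios, and each lay inside the central 95% of probe sets of like brightness (-0.68 to 0.47 and -0.83 to 0.52).

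Id1, an Id gene used as a readout of BMP signalling, had 1 probe set, 1425895_a_at. It read 90.2 under the knockout label and 43.3 in wild type, where it was under the floor. Against the floor the signal was at least 1.49-fold higher, just short of the 1.5-fold size used for counting. The deposited values themselves stood in a ratio of 2.08 (log2 1.06), outside the central 95% at log2 signal 5 to 6 (-0.86 to 0.71). With no second Id1 probe set, this difference has no check within the arrays, and its size depends on a wild-type signal among the dimmer probe sets of the array.

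Id2, the Id gene known for its part in innate lymphoid, NK and dendritic cell development, did not show such a gap. It read 174 against 168 at 1435176_a_at (log2 ratio 0.06) and 130.5 against 122.9 at 1422537_a_at (0.09). The remaining probe set, 1453596_at, was under the floor at 36.8 and 32.1. On marker lists of the cell types in which Id2 is known to act, the genes that were measured went both ways on the same arrays. NK and innate lymphoid genes were measured for 4 of 9, with 1 (Gzmb, 514 against 285) called higher and 0 lower. Their summed signal was 3108 against 2503, most of it that of Nkg7 (2094 against 1819). Ncr1, Gzma, Eomes, Tbx21 and Klrd1 were under the floor on both arrays. Dendritic cell genes were measured for 5 of 10, with 0 called higher and 3 lower, and with Siglech and Xcr1 under the floor on both arrays. Their summed signal of 1697 against 2617 was mostly that of 4 MHC class II pathway genes (1453 against 2391), which other antigen-presenting cells also express. The 3 lower genes, H2-Eb1, H2-Aa and Cd74, are among these 4, and the other measured gene, Itgax, had a log2 ratio of at least 0.31. The part of these cell types in the Id2 signal was not tested.

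**Figure D2:**
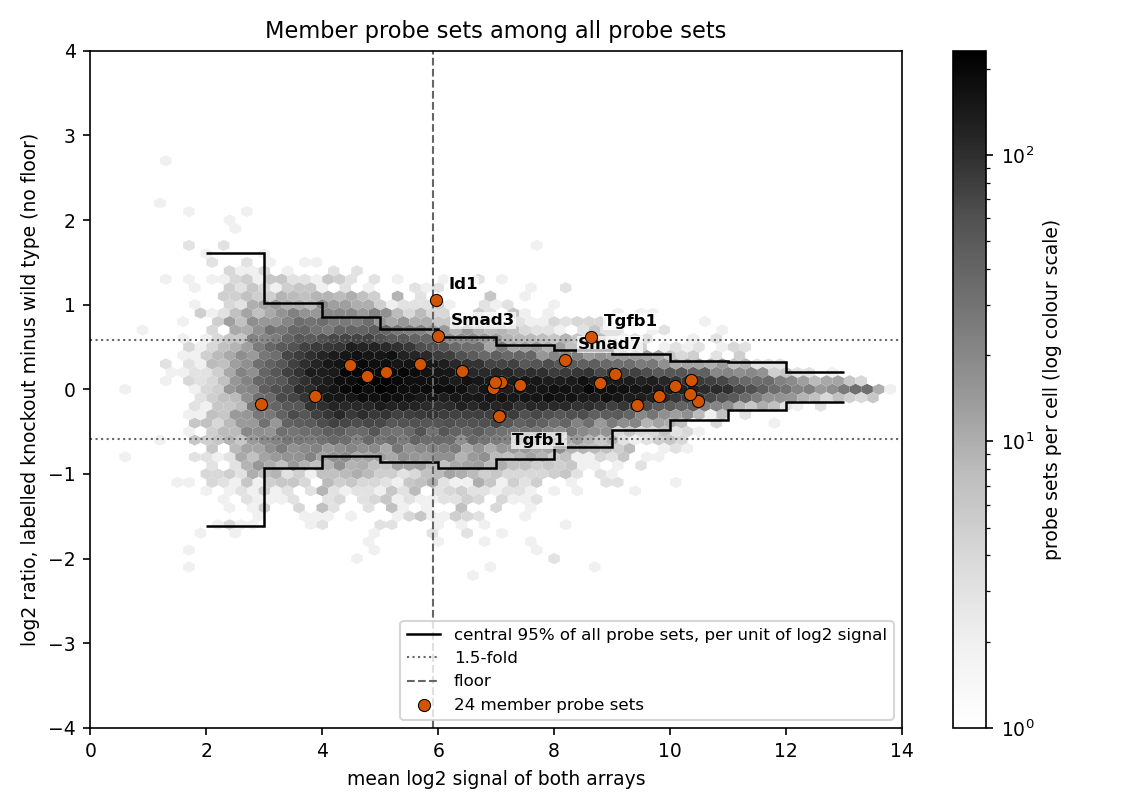
Log2 ratio without a floor (labelled knockout minus wild type) against the mean log2 signal of both arrays for all 45037 probe sets (grey cells, log colour scale), with the 24 member probe sets in orange. Black steps bound the central 95% of all probe sets per unit of log2 signal (the outer steps also take in probe sets beyond them), and 21 of the 24 members lie inside; those outside are Id1, Tgfb1 1420653_at and, by a small margin, Smad3 1450472_s_at.

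Agreement between probe sets was read within the 7 member genes that had more than 1 measured. In 4 of them (Tgfbr2, Smad2, Smad7 and Id2) the measured probe sets had ratios of one sign, and in Tgfb1, Smad3 and Smad4 they did not. Among the 4632 genes used for the technical SD, 52.4% had one sign throughout. Without a floor, 21 of 24 member probe sets lay inside the central 95% of probe sets of like brightness. The exceptions were Id1 (1.06), Tgfb1 1420653_at (0.62) and Smad3 1450472_s_at (0.63, against an upper limit of 0.62).

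The rest of the pathway was described with 8 gene lists holding 87 genes on the array, of which 63 were measured. Of these 63, 2 were called higher and 3 lower at the 1.5-fold size, or 3.17% and 4.76%, against 1.71% and 2.63% of all measured genes. Positive ratios numbered 31 and negative ones 32, and the median was -0.0011. The called genes fell in 2 of the lists, the genes often induced by Tgf-beta and the Smad cofactors.

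Most other ligands were under the floor. Of 10 ligand genes, 8 were under it on both arrays, among them Tgfb2, Tgfb3, Bmp2, Bmp4 and Bmp6, so their ratios were not read. The exceptions were Inhbb, a subunit of activin B (140 against 120, log2 ratio 0.22), and Gdf11 (79.9 against 70.5, 0.18). Of 10 genes that store or activate latent Tgf-beta, 5 were measured and 0 were called in either direction (median log2 ratio 0.04). Ltbp4, which anchors the latent complex in matrix, read 111 against 74.4 (log2 ratio 0.57), close under the 1.5-fold size. Ltbp3 of the same family read 676 against 835 (-0.31), and Nrros, which holds latent Tgf-beta on myeloid cells, read 1768 against 1530 (0.21). The latent binding proteins thus differed in sign from each other.

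Of 12 other receptors and coreceptors, 9 were measured, 0 were called, and the median log2 ratio was -0.06. The activin receptor gene Acvr2a read 138 against 182 (-0.40). Bambi, a pseudoreceptor that dampens the pathway, read 140.1 against 111.9 (0.32). Acvr2b had a log2 ratio of 0.14 at its brightest probe set and 0.61 at another. Among other Smads, 3 of 4 were measured and 0 called. Smad1, of the BMP branch, read 858 against 710, and its 3 probe sets had log2 ratios from 0.12 to 0.27. Smad5 had a ratio of -0.08, and Smad6, an inhibitor of the BMP branch, read 42.5 and 60.9, which puts it at the floor in wild type.

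All 18 Smad cofactors and negative regulators were measured, with 0 called higher, 1 called lower and a median log2 ratio of 0.02. The one lower was Ski, a corepressor that binds Smads, at 311 against 494 (-0.67), while its second probe set gave -0.09. Tgif2, another corepressor, read 790 against 1007 (-0.35). Nedd4l, a ubiquitin ligase of activated Smads, had ratios of 0.27 and -0.33 at its measured probe sets. The corepressor call therefore rests on 1 of the probe sets of Ski.

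Genes often induced by Tgf-beta went both ways. Of 19 on the array, 14 were measured, 2 were called higher and 2 lower, and the median log2 ratio was -0.06. These counts include Myc (1656 against 1319, 0.33), named after its value was seen. Myc is better known as repressed by Tgf-beta, so the list's name does not hold for it. The higher ones were Cdkn1a, the p21 inhibitor of cyclin-dependent kinases (350 against 229, log2 ratio 0.61, with 0.40 at its second probe set), and Fn1, fibronectin (123 against 79.8, 0.63). The lower ones were Cdkn1c, the p57 inhibitor (87.2 against 154, -0.82), and the transcription factor Runx1 (414 against 756, -0.87), whose 5 measured probe sets ran from -0.87 to 0.28. Tgfbi, a secreted matrix protein named for its induction by Tgf-beta, read 732 against 1094 (-0.58) and fell just short of the size. It was named after its values were seen, because all 4 of its probe sets were lower, from -0.78 to -0.58. The matrix and muscle targets Ccn2, Col1a1, Acta2 and Tagln were under the floor on both arrays. Cdkn1a and Cdkn1c, which both restrain the cell cycle, thus had ratios of opposite sign. Several of these genes also mark other cells: endothelial and stromal markers had a summed signal of 704 against 1247 on the same arrays (646 against 786 without Cxcl12), with 5 of 12 measured, 1 called higher and 3 lower, and Cdh5, Lepr and Col1a1 under the floor on both. The part of such cells in the ratios of the induced genes was not tested.

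Of 7 other Id genes and E protein partners, Id3 and Id4 stayed under the floor on each array, and the other 5 were measured with 0 called and a median log2 ratio of -0.04. The E protein gene Tcf12 read 975 against 1099 (-0.17, with its 5 probe sets from -0.17 to 0.18), Tcf4 read 1422 against 1467 (-0.04, with its 5 measured probe sets from -0.45 to -0.01), and Tal1, which pairs with E proteins, read 1620 against 1821 (-0.17). In the kinase branch that runs beside the Smads, all 7 genes were measured, 0 were called, and the median was 0.04. Traf6, a ubiquitin ligase, had a ratio of 0.20, the p38 kinase gene Mapk14 of 0.11 at its brightest probe set and -0.78 at its lowest, and Tab2, an adaptor of the kinase Map3k7, of -0.11 at its brightest and -0.58 at its lowest.

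**Figure D3:**
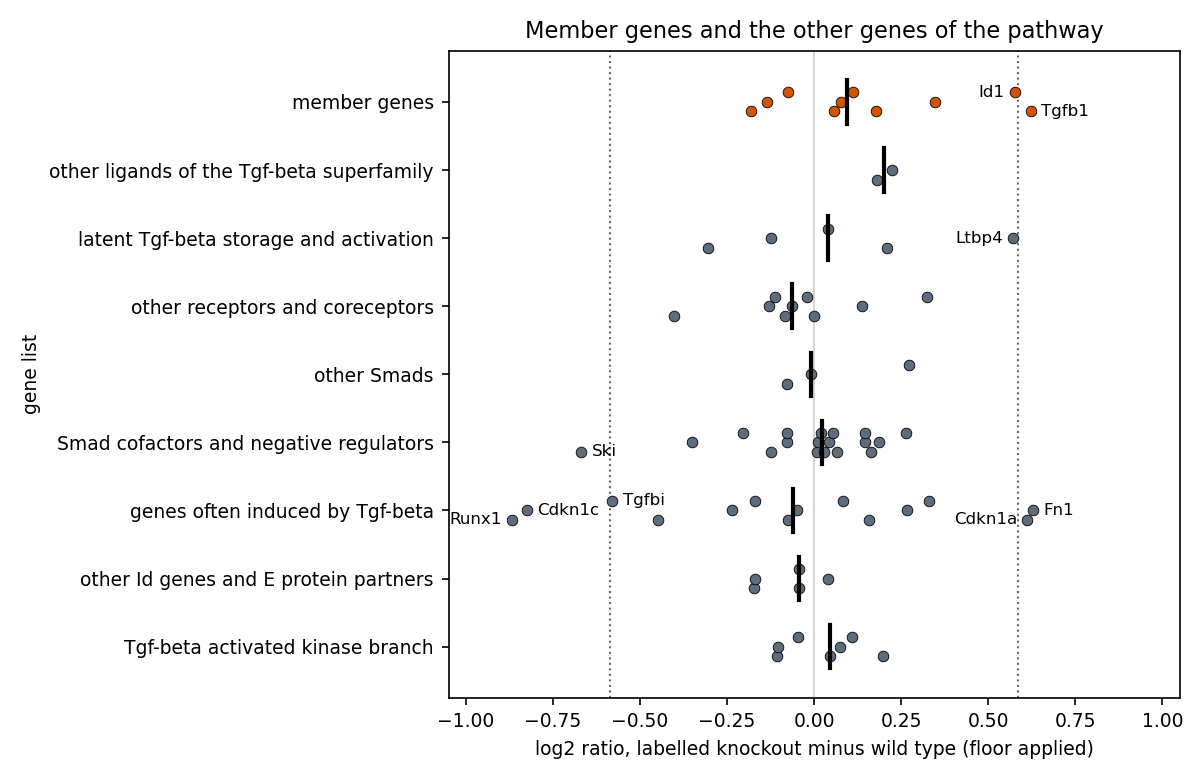
Log2 ratio (labelled knockout minus wild type, brightest probe set, floor applied) of the 10 member genes (orange) and of the 63 measured genes in 8 pathway lists (grey), 1 point per gene, with the list's median as a bar and 1.5-fold dotted. Most points lie within 1.5-fold; Tgfb1, Fn1 and Cdkn1a lie beyond it on the higher side and Ski, Cdkn1c and Runx1 on the lower side.

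Among the 9 member genes whose brightest probe set was above the floor on both arrays, the order by ratio, from highest to lowest, was Tgfb1 (0.62), Smad7 (0.35), Tgfbr1 (0.18), Tgfbr2 (0.11), Smad2 (0.08), Id2 (0.06), Smad3 (-0.07), Smad4 (-0.14) and Tgfbr3 (-0.18). Tgfb1 and Smad7 were 0.27 apart and the other neighbours no more than 0.17, against a technical SD of 0.22 for a single ratio. The probe sets of Tgfb1 itself were 0.94 apart, so the order was not resolved for any neighbours. Id1, with only a lower bound of 0.58, has no place in this order. The values moved little between scalings of the arrays. Tgfb1 1420653_at ranged from 0.54 to 0.66 over all processing settings and its other probe set from -0.32 to -0.22. Smad7 1423389_at ranged from 0.29 to 0.39. Id1 ranged from 0.54 to 1.06, the upper end being the value where its wild-type signal was not raised to a floor.

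**Figure D4:**
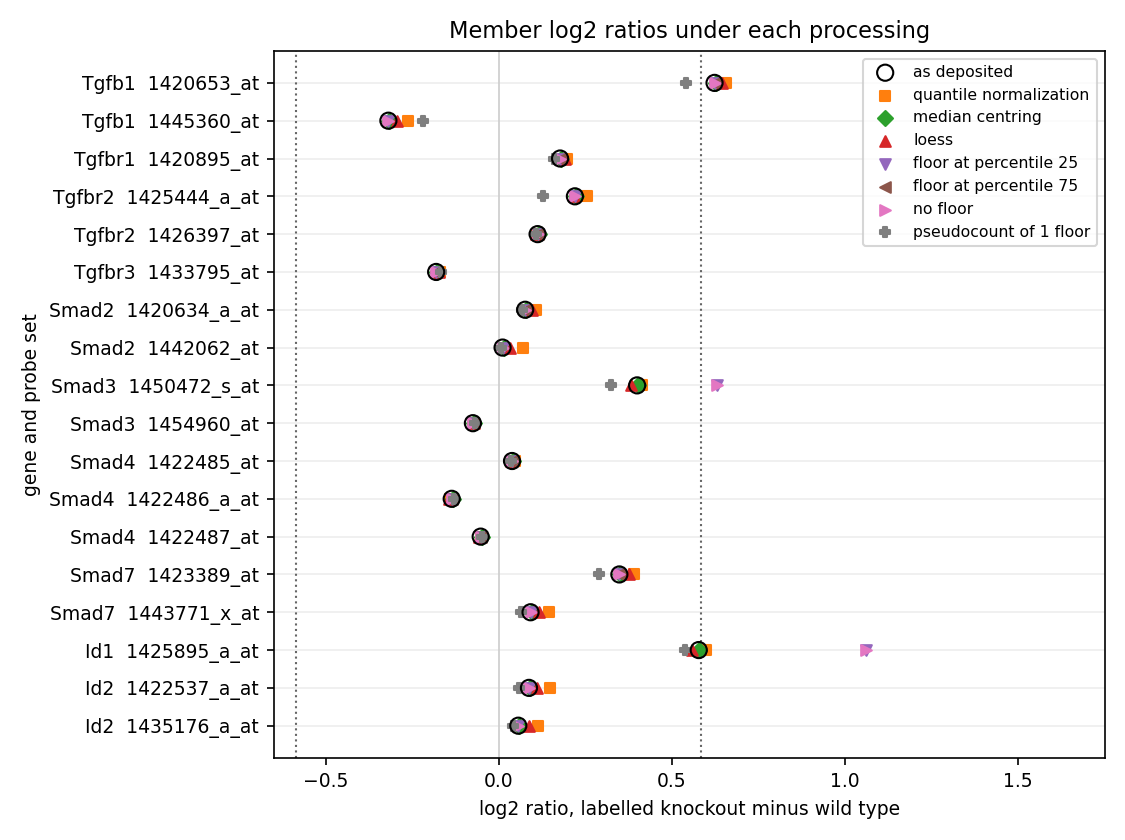
Log2 ratio (labelled knockout minus wild type) of the 18 measured member probe sets as deposited (open circles) and under 7 other settings of scaling, floor and pseudocount, with 1.5-fold dotted. Points of a probe set cluster together except for Id1 (0.54 to 1.06) and Smad3 1450472_s_at (0.32 to 0.63), which were under the floor in wild type.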

How the data were processed

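Gene expression was measured on 2 Affymetrix arrays, 1 of HSC labelled Sirt6 knockout and 1 of wild-type HSC. The deposited values are linear signal intensities that the authors made with MAS5, per the submitters' processing notes; scaling target, version and detection calls: not given in the sources used here. Biotin is the label per the labels, whose protocol text names another. They were taken to log2 without further scaling. Of 45037 probe sets, 34945 named 1 gene, 932 several and 9160 none; only the first were named. The floor was percentile 50 of the mean log2 signal, and the size for counting was 1.5-fold. Each pathway list was named by its genes at least 1.5-fold different, or, where fewer than 3 were, by its 3 largest ratios; marker genes and genes under the floor were named after their values were seen. Members and lists were chosen with earlier results of these data known. Alternatives were quantile normalization, median centring, loess (statsmodels 0.14.6, span 0.3), the floor moved to percentile 25 or 75 or dropped, a pseudocount equal to the floor, a gene's median probe set, omission of _x_at and _s_at probe sets, and a 2-fold size. The 7 marker lists included monocyte (summed signal 3366 against 2211, 1 of 10 higher and 0 lower) and megakaryocyte genes (2338 against 2257, 1 higher and 3 lower of 6 measured). Python 3.11.15, numpy 2.4.6, pandas 2.3.3 and matplotlib 3.10.9 were used. The procedure was tested on simulated data with 2-fold changes in probe sets of above-median signal. That test does not bear on 1.5-fold differences or on signals near the floor.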

Additional observations from a re-analysis of the deposited data

How the results depend on the processing

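The median log2 ratio of the member genes (0.09) lay between 0.09 and 0.16 under every alternative run, and 0 members were called lower under any. The count of 1 member probe set and 1 member gene at least 1.5-fold higher depended on the setting. With quantile normalization it was 2 probe sets and 2 genes (1.97% of all probe sets and 2.02% of all genes were higher under it). With the floor at percentile 25 it was 3 probe sets (2.71% of all) and 2 genes (2.98%), and with no floor 3 (5.38%) and 2 (5.42%). With a pseudocount of 1 floor it was 0 (0.449%) and 0 (0.627%), and with the median over the probe sets of a gene 0 genes (1.58%). At a size of 2-fold it was 0 probe sets and 0 genes, where 0.302% of all measured probe sets and 0.398% of genes were called higher, and 0.785% and 0.572% lower. Pathway list genes called higher numbered 2 of 63 as reported, where 1.71% of all genes were higher. They numbered 0 of 44 at a floor of percentile 75 (1.15% of all genes) and 5 of 87 without one (5.42%). With the pseudocount it was 0 of 87 (0.627%), with the median over probe sets 1 of 63 (1.58%) and at 2-fold 0 (0.398%). Every other setting gave 2 or 3 higher of 62 to 78 (1.71% to 2.98% of all genes). Those called lower numbered 3 of 63 as reported (2.63% of all genes) and 6 of 87 with no floor (3.81%). They numbered 1 of 87 with the pseudocount (0.885%) and 0 at 2-fold (0.572%). Every other setting gave 2 to 4 lower of 44 to 78 (1.29% to 2.98% of all genes). Single member probe sets moved by less than the technical SD of 0.22 under every scaling, floor and pseudocount, except Id1 (1.06) and Smad3 1450472_s_at (0.63) with the floor at percentile 25 or no floor, where the lower floor itself sets the change. No paired analysis was possible because each genotype had 1 array. MAS5 signals near the floor limit what can be read of Id1, and 1 array per genotype leaves every difference without a replicate.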
